A study of Mus musculus with 2 samples.

Results

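The natural killer (NK) cells of B16-F10 melanomas were taken here as droplet barcodes with at least 1 UMI of Ncr1, which encodes the NK receptor NKp46, and 0 UMIs of Cd3e, Cd8b1, Cd4, Csf1r and Cd79a. UMIs are molecule tags, so that each count stands for 1 captured transcript. Barcodes were first required to show 300 or more genes and no more than 10% of UMIs from mitochondrial genes. The NK cells, thus chosen by their UMIs of these 6 genes, were 158 of 22490 such barcodes (0.703%), 90 of them from iKO tumours and 68 from control tumours. Since the rule used measured values, the level of its 6 genes and of genes that go with them describes the NK cells and is not a test.

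NK cells are innate lymphocytes that kill target cells by releasing perforin and granzymes. Their activity is set by a balance of activating receptors, such as NKp46 and NKG2D, and inhibitory receptors, such as many of the Ly49 family that read MHC class I on other cells. Type I interferons raise their cytotoxicity. Trex1 encodes an exonuclease that clears DNA from the cytosol. Its loss is known to set off the cGAS-STING pathway and with it type I interferon production.

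The iKO group held male mice with both Trex1 alleles floxed (Trex1Fl/Fl), and the control group male mice with 1 floxed and 1 wild-type allele (Trex1Fl/WT). All of them carried 1 R26CreERT2 knock-in allele, so that the controls had the Cre and a conditional allele as well. Mice of both groups were 8 to 12 weeks old. They received 1000 cells of B16-F10, a mouse melanoma line, in Matrigel into the skin of both legs, and tamoxifen (1 mg) on 3 days in a row from day 5. R26CreERT2 is driven from the Rosa26 locus, which is active in most tissues, so that deletion is not restricted to NK cells or to immune cells. Live leukocytes sorted on CD45 from tumours of day 14, after enzymatic digestion, were tagged with hashtag antibodies as 4 samples per genotype and pooled by genotype. Genotype and pool are therefore the same division of the samples and cannot be told apart in any comparison. The labels do not say whether a hashtagged sample is 1 mouse, so p-values measure the spread between hashtagged samples.

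The 8 samples gave 1304 to 5901 kept barcodes each. No barcode sequence was shared between samples of 1 pool, and of 45 shared between the pools none was an NK barcode. The 158 NK barcodes held 1393753 UMIs. Trex1 had 0 of them, which allows up to 2.15 CPM (UMIs of a gene per 1000000 UMIs of the cells summed) at 3 UMIs, and 2 UMIs over all kept barcodes, so that these counts do not check the genotype labels. The NK sums of any 2 samples of a genotype differed beyond counting noise, with a ratio of chi-square to its degrees of freedom of 1.46 to 3.14, so that no sample was a duplicate.

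The gated cells carried the other markers of NK cells. Klrb1c, which encodes NK1.1, was detected in 84.2% of them against 1.29% of CD8 T cells (Cd3e and Cd8b1 detected, 4591 barcodes), 0.821% of Csf1r-positive myeloid cells (7550 barcodes) and 0.348% of B cells (Cd79a detected, 863 barcodes). Each of the 3 other gates also required 0 UMIs of Ncr1 and of marker genes of other cell types. Barcodes with Ncr1 and Cd8b1 (46), Csf1r (60) or Cd79a (13) were thus left out of them, so that the low shares there are partly set by these rules. Klra8, the activating receptor Ly49H, was found in 42.4% of NK cells and 0.218% of CD8 T cells. Eomes, a transcription factor of NK cell maturation, was found in 59.5% and 32.5%. At least 1 of these 3 markers was present in 149 of the 158 cells. The cells were shallower than CD8 T and Csf1r-positive cells, with a median of 6918.5 UMIs against 13924 and 14503.5, and deeper than B cells (4119).

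Next to Ncr1 itself, the genes with the highest ratio of NK level to the level in all other kept cells were Klra8 (422 CPM), Klra4 (446 CPM), Klrb1a (119 CPM) and Gzma (7406 CPM). Gzma encodes granzyme A and was detected in 75.3% of NK cells, 11.6% of CD8 T cells and 2.09% of B cells. Klrb1f, the integrin gene Itga2 (CD49b) and the chemokine gene Xcl1 followed the same order, at 70.9%, 40.5% and 69% of NK cells against 1.94%, 3.86% and 14.8% of CD8 T cells. Other cytotoxic genes were shared with CD8 T cells. Nkg7 was detected in 96.2% of NK and 98.5% of CD8 T cells, Prf1 (perforin) in 77.8% and 80.6%, and Gzmb (granzyme B) in 72.2% and 83.5%. Killer receptors split in the same way, since Klrk1 (NKG2D) and Klrd1 (CD94) were found in 81.4% and 88.6% of CD8 T cells as well.

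**Figure D1:**
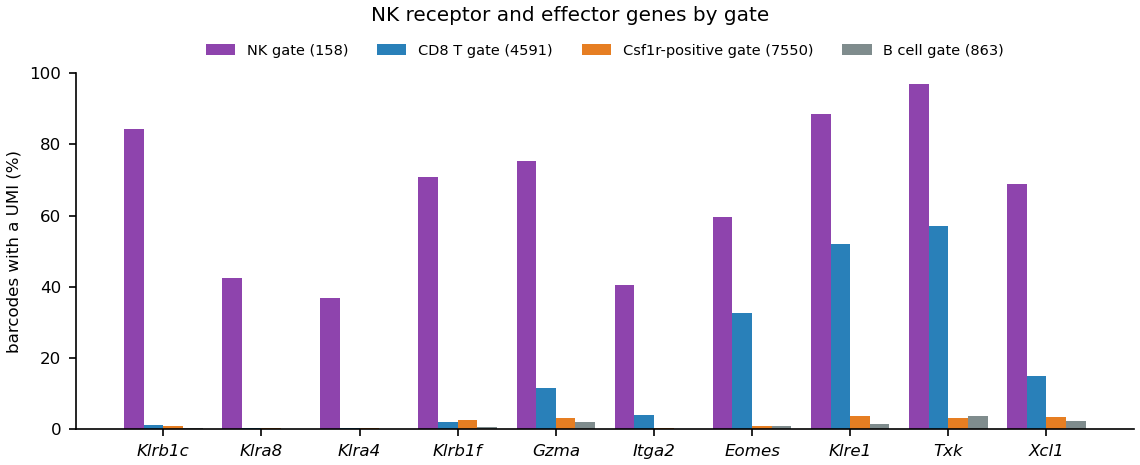
Share of barcodes (%, vertical axis) with at least 1 UMI of 10 genes in the NK, CD8 T, Csf1r-positive and B cell gates (colours, with the number of barcodes in each). Klrb1c, Klra8 and Klra4 were found in at most 1.29% of the barcodes of any other gate, whereas Klre1 and Txk were found in 52% and 57.1% of CD8 T cells.

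Markers of other cell types were checked gene by gene. Il22, Il23r and Il17a, of group 3 innate lymphoid cells, Itgae, Xcr1, Siglech, all 5 mast cell and basophil genes and 3 of 5 melanoma genes (Mlana, Tyrp1 and Tyr) had 0 UMIs in NK cells. T cell genes not used by the rule were found in a minority of the cells, with Cd3d in 33 barcodes, Cd3g in 34 and Trac in 33 of 158. A stricter rule that also required 0 UMIs of Cd3d, Cd3g and Cd8a and at least 1 UMI of Klrb1c, Eomes or Klra8 left 88 barcodes. Transcripts of abundant myeloid genes were spread over all gates. S100a8 was detected in 44.3% of NK cells, 44.4% of CD8 T cells and 52% of B cells, and Lyz2 in 79.1%, 80.5% and 75.1%. These shares are no higher than in gates that should lack the genes and are not read as expression. Summed over the 12 macrophage and monocyte genes, the NK level was 399 to 962 CPM in iKO and 595 to 944 CPM in control samples, against 17277 CPM in Csf1r-positive cells. Dendritic cell markers stood higher in some iKO samples. Their 8 genes summed to 125, 2211, 2126 and 832 CPM in iKO samples 1 to 4 and to 264 to 482 CPM in control samples, against 257 CPM in CD8 T cells. Most of the sum was H2-Aa and H2-Ab1, of MHC class II, and single barcodes held 254 of 502 H2-Aa UMIs in iKO sample 2, 66 of 68 in iKO sample 3 and 41 of 45 in iKO sample 4. Of the 8 genes, 2 were at 0 in all 158 cells, namely Xcr1 and Siglech. They mark type 1 and plasmacytoid dendritic cells and not the other kinds. The part of dendritic cells in the results was not tested.

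Cells near the edge of the rule were looked at as a description. With exactly 1 Ncr1 UMI there were 31 barcodes, of which 74.2% carried Klrb1c, 48.4% Eomes and 67.7% Gzma. In the 127 with more, these shares were 86.6%, 62.2% and 77.2%. Just outside, 67 barcodes had Klrb1c but no Ncr1 and none of the other excluded genes. They were 16 of 13531 kept iKO barcodes and 51 of 8959 kept control barcodes. Eomes was found in 25.4% and Gzma in 38.8% of the 67. Of 305 kept barcodes with Ncr1, the other 5 genes removed 147, among them 84 with Cd3e, 60 with Csf1r and 46 with Cd8b1.

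NK cells were a small part of the leukocytes in both genotypes, and the spread among the controls was larger than the difference between the genotypes. Their share of kept barcodes in iKO samples 1 to 4 was 0.672%, 0.780%, 0.460% and 0.488%. For control samples 1 to 4 the shares were 1.21%, 0.409%, 1.16% and 0.200%. The control values lay on both sides of the iKO values. The means were 0.600% ± 0.152 (SD, n = 4) in iKO and 0.745% ± 0.517 (SD, n = 4) in control, which did not pass a two-sided exact permutation test (p = 0.6, smallest possible 0.0286). With 5 to 46 NK barcodes per sample, the exact binomial 95% intervals, which cover counting error only, ran from 0.0648% to 0.465% for the lowest sample and from 0.779% to 1.80% for the highest. Without control sample 1 the difference of -0.145 percentage points became 0.0111. As a share of lymphoid barcodes the means were 1.30% and 1.61% (exact permutation p = 0.457). Whether a barcode meets the rule depends on its number of UMIs, which differed between the genotypes (below). With the rule applied after thinning each barcode to 2000 UMIs, the means were 0.499% ± 0.205 in iKO and 0.633% ± 0.493 in control (SD, n = 4 each, exact permutation p = 0.657).

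**Figure D2:**
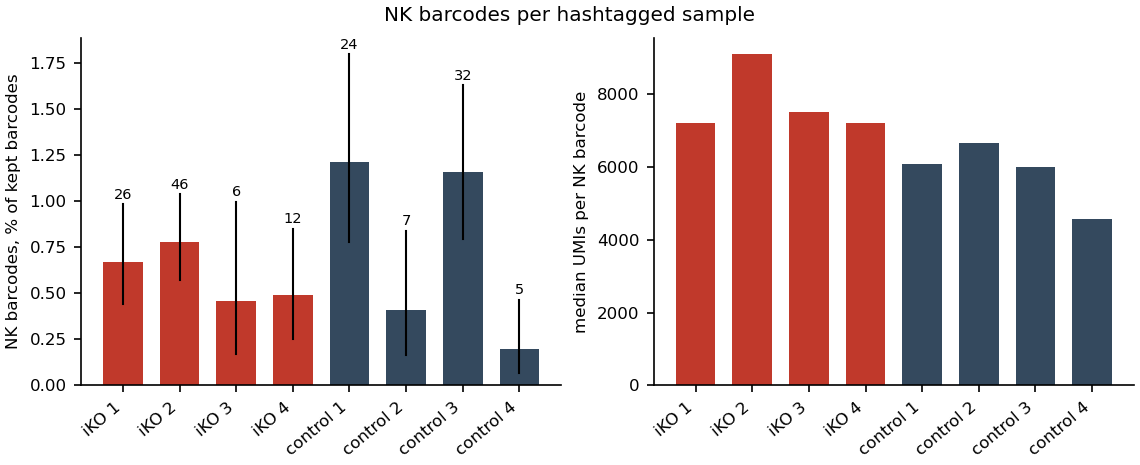
Left, NK barcodes as a share of kept barcodes (%) in each hashtagged sample, with exact binomial 95% intervals as lines and the number of NK barcodes above them. Right, the median number of UMIs per NK barcode, which lay between 7204.5 and 9104.5 in iKO and between 4581 and 6662 in control samples.

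NK cells of iKO tumours thus had more UMIs per barcode in each of the 4 samples than those of any control sample. This was not particular to NK cells, since the median over all kept barcodes was 13048 to 14677 UMIs in iKO and 6557 to 11931 in control samples. Counts were therefore compared as CPM, and shares of cells after thinning each barcode to 2000 UMIs, which left out 2 barcodes.

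Maturation of mouse NK cells is commonly followed by CD27 and CD11b (Itgam), with CD27 alone on less mature and CD11b alone on more mature cells. After thinning, Cd27 without Itgam was detected in 19.2%, 26.7%, 20% and 33.3% of the NK cells of iKO samples 1 to 4. The shares of control samples 1 to 4 were 12.5%, 14.3%, 9.38% and 20%. The groups overlapped and the means were 24.8% ± 6.59 and 14.0% ± 4.46 (SD, n = 4 each, exact permutation p = 0.0857, 0.257 after adjustment over the 6 shares tested). Itgam without Cd27 was detected in 12.9% ± 5.93 and 9.30% ± 8.70 (SD, n = 4 each, exact permutation p = 0.486). The largest class had neither transcript, at 61.7% ± 7.78 in iKO and 74.6% ± 3.95 in control (SD, n = 4 each, exact permutation p = 0.0857, 0.257 after adjustment). Most cells could thus not be placed, and a cell with 1 of the 2 transcripts may have missed the other, so that these shares do not give stages. Eomes was detected in 35.9% ± 17.2 of iKO and 24.8% ± 11.8 of control NK cells (SD, n = 4 each, exact permutation p = 0.371). Cycling cells, with UMIs of at least 3 of 6 cell cycle genes, numbered 4 of 88 in iKO and 1 of 68 in control samples (exact permutation p = 0.429 over sample shares). None of the 6 shares passed, and without thinning the lowest adjusted exact permutation p was 0.4. Cd27 without Itgam was then detected in 45% ± 11.2 and 35.2% ± 19.1, and neither transcript in 25.2% ± 6.92 and 32.8% ± 7.13 (SD, n = 4 each).

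To compare transcription between genotypes, UMIs of NK cells were summed per sample, and the 5 samples with at least 10 NK barcodes were fitted, which are iKO samples 1, 2 and 4 and control samples 1 and 3 (140 NK barcodes). Of 3376 genes that passed the low-count filter, 9 were higher (0.267%) and 4 lower (0.118%) in iKO at an edgeR adjusted p under 0.05, and 483 had an unadjusted p under 0.05. Genes whose CPM in all 3 iKO samples lay above both control samples made up 15% of the tested genes, and genes below both made up 19.0%. The median log2 fold change over all tested genes was -0.02. The 3 samples with 5 to 7 NK barcodes were not fitted, and their values are given apart. Levels of fitted samples are given in the order iKO samples 1, 2 and 4, then control samples 1 and 3.

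The genes called higher were led by interferon-stimulated genes. Ifi27l2a, an interferon-inducible gene of the inner mitochondrial or nuclear membrane, reached 1770.3, 1466 and 756 CPM in iKO and 129 and 122 CPM in control cells. The samples left out of the fit had 676 CPM in iKO sample 3 and 99.1 and 45.9 CPM in control samples 2 and 4, so that all 4 iKO samples lay above all 4 controls (log2 fold change 3.44, SE 0.37, edgeR adjusted p = 0.00534). Ly6a, which encodes the interferon-inducible surface protein Sca-1, had 519.8, 487 and 298 CPM in iKO and 56.2 and 68.1 CPM in control cells (log2 fold change 2.84, SE 0.34, edgeR adjusted p = 0.00657). Its values in the samples left out were 313 CPM in iKO sample 3 and 0 and 68.9 CPM in control samples 2 and 4, again without overlap. Irf7, the transcription factor that amplifies type I interferon responses, had 156, 189.9 and 191 CPM in iKO and 39.3 and 53.5 CPM in control cells (log2 fold change 1.94, SE 0.30, edgeR adjusted p = 0.0204). In the small samples it had 115 CPM in iKO sample 3 and 19.8 and 0 CPM in control samples 2 and 4. Ifi27l2a, Ly6a and Irf7 were thus among the 10 of the 13 called genes that separated the genotypes in all 8 samples. The 13 genes were called from 5 of these samples, and the share of all tested genes that separate all 8 was not counted. Usp18, which removes ISG15 from proteins and dampens interferon receptor signalling, had 125, 87.5 and 68.7 CPM in iKO and 16.9 and 9.73 CPM in control cells (log2 fold change 2.85, SE 0.52, edgeR adjusted p = 0.0487), and 0 CPM in control samples 2 and 4. Ms4a4c, of the membrane-spanning 4A family, had 188, 307 and 298 CPM in iKO and 39.3 and 38.9 CPM in control cells (log2 fold change 2.76, SE 0.35, edgeR adjusted p = 0.00657). In the samples left out of the fit it had 231 CPM in iKO sample 3 and 79.3 and 184 CPM in control samples 2 and 4, so that control sample 4 came close to the iKO values.

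Genes outside the interferon response were higher by smaller factors. Lgals1, which encodes the lectin galectin-1, had 2626, 2140.3 and 2428 CPM in iKO and 1163 and 968 CPM in control cells (log2 fold change 1.19, SE 0.15, edgeR adjusted p = 0.00657). Its iKO sample 3, at 1005 CPM, lay below control sample 1. Ran, the GTPase of nuclear transport, had 649, 557 and 672 CPM in iKO and 247 and 233 CPM in control cells (log2 fold change 1.39, SE 0.21, edgeR adjusted p = 0.0176), but control sample 4, with 5 NK barcodes, had 964 CPM. In that sample 35 of 42 Ran UMIs came from 1 barcode. Actg1, cytoplasmic actin, had 3271, 3154 and 3939.8 CPM in iKO and 2124 and 1571 CPM in control cells (log2 fold change 0.92, SE 0.15, edgeR adjusted p = 0.0299). Gm10076, a predicted gene, had 934, 873 and 969.7 CPM in iKO and 461 and 413 CPM in control cells (log2 fold change 1.10, SE 0.18, edgeR adjusted p = 0.0294). Reads of Gm10076, as of Rps10 below, may be shared with near-identical copies of ribosomal protein genes, and those of the Ifi, H2, Klra and Klrb1 families between their members, so that values of single members are uncertain to that extent.

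Of the 4 genes called lower, 3 are typical of neutrophils or myeloid cells. S100a8, a subunit of calprotectin, had 39.1, 42.7 and 30.5 CPM in iKO and 2995 and 141 CPM in control cells (log2 fold change -5.28, SE 0.92, edgeR adjusted p = 0.0399). S100a9, the other subunit, had 66.4, 59.8 and 68.7 CPM in iKO and 2601 and 258 CPM in control cells (log2 fold change -4.44, SE 0.72, edgeR adjusted p = 0.0266). Control sample 1 stood apart, and 1 of its 24 NK barcodes held 506 of its 533 S100a8 UMIs (94.9%) and 432 of its 463 S100a9 UMIs (93.3%). This barcode was the single NK barcode with a doublet score over 0.25. Without it the log2 fold change went from -5.28 to -1.91 for S100a8 and from -4.44 to -1.78 for S100a9, and both stayed under an edgeR adjusted p of 0.05. Cxcl2, a chemokine that attracts neutrophils, had 15.6, 23.5 and 15.3 CPM in iKO and 309 and 141 CPM in control cells (log2 fold change -3.45, SE 0.43, edgeR adjusted p = 0.00657), with 37 of 55 UMIs of control sample 1 in 1 barcode. Their log2 fold changes were also negative in CD8 T cells (-2.78 for S100a8, -2.58 for S100a9 and -2.30 for Cxcl2) and in Csf1r-positive cells (-1.80 for S100a8, -1.98 for S100a9 and -1.19 for Cxcl2, each over an edgeR adjusted p of 0.05), and the part of free RNA in the NK values was not tested. A fit after thinning barcodes to 2000 UMIs before the rule turned the sign of all 3 (1.35, 2.46 and 0.88, none called). It also lacked iKO sample 4, which then had 8 NK barcodes. The rule also picked partly other barcodes, with 27 in iKO sample 1 against 26 before. The fourth gene, Rps10, a ribosomal protein of the small subunit, had 1489, 1522 and 1435 CPM in iKO and 2702 and 2670.2 CPM in control cells (log2 fold change -0.84, SE 0.12, edgeR adjusted p = 0.0176). All 4 iKO samples lay below all 4 controls. Its log2 fold change was -0.76 in CD8 T cells (edgeR adjusted p = 0.116) and -1.15 in Csf1r-positive cells (edgeR adjusted p = 0.03) of the same pools.

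**Figure D3:**
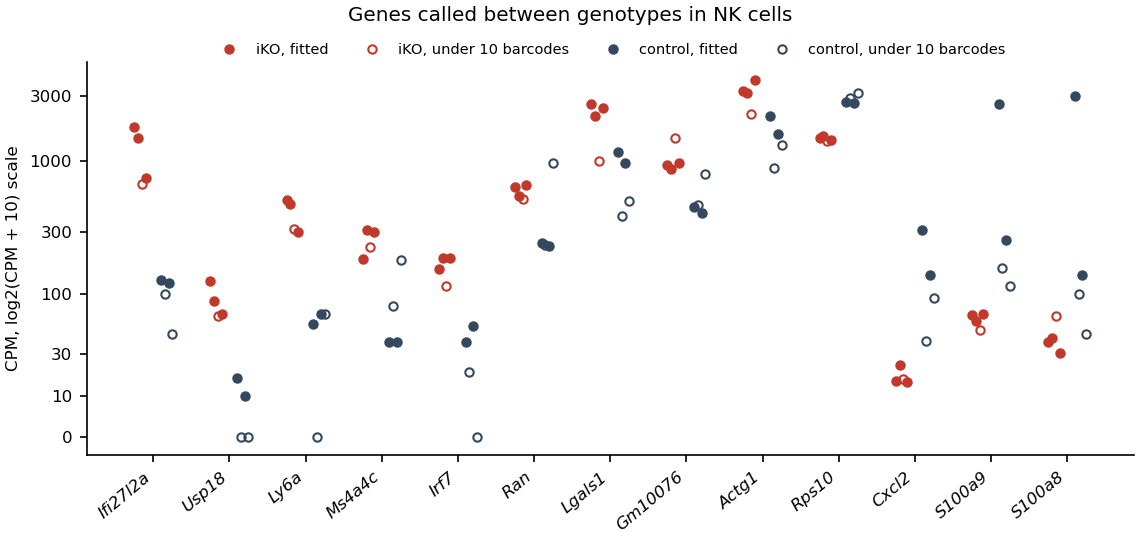
CPM of the 13 genes called between genotypes in each hashtagged sample, on a log2(CPM + 10) axis. Filled points are the 5 fitted samples and open points the samples with under 10 NK barcodes. Of the 13 genes, 10 separate all 8 samples by genotype, and Ran, Lgals1 and S100a8 do not. The share of all tested genes that do so was not counted. Control sample 1 lies far above the rest for S100a8 and S100a9.

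These calls rest on few samples. Leaving out control sample 1, which left 1 fitted control whose spread is then taken to be that of the iKO samples, ended every call (0 of 4457 genes by edgeR, 434 at an unadjusted p under 0.05). All 13 genes had the same direction there, and Ifi27l2a had a log2 fold change of 3.53 (edgeR adjusted p = 0.0585). Without control sample 3, 5 of the 13 calls remained (Ifi27l2a, Ly6a, Cxcl2, S100a8 and S100a9) and without iKO sample 2, 5 remained (Ifi27l2a, Ly6a, Ms4a4c, Lgals1 and Cxcl2). Without iKO sample 4 the calls grew to 47 higher and 12 lower, and without iKO sample 1 the higher calls grew to 17. DESeq2 called 31 genes higher and 5 lower. It gave an adjusted p to 11 of the 13 and called all 11. A fit of all 8 samples, added after the data were seen, called 12 of 2300 genes higher (0.522%) and 4 lower (0.174%). Of the 12 genes of the 13 that it tested, 8 were called. The genes added among the higher ones were Gzmb, Spp1, Bst2, Xaf1, Stmn1 and Isg15. After thinning, in a fit that also lacked iKO sample 4, 6 of the 12 genes tested remained called. These were Ifi27l2a, Ly6a, Irf7, Lgals1, Actg1 and Rps10.

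The wider type I interferon response was described over a list of 61 genes. Summed over all of them, with no filter, the level was 6047 to 10009 CPM in the 4 iKO samples and 2479 to 4787 CPM in the 4 controls, without overlap. The filter passed 38 of the genes. Of these, 4 were called higher and none lower, 35 had a positive log2 fold change and the median was 1.19, against -0.02 over all tested genes. The 3 iKO samples lay above both controls for 26 of the 38 (68.4%, against 15% of all tested genes). Over the alternatives the median ranged from 1.05 to 1.41. The uncalled genes with the largest differences were Ifit1, Ifit3 and Ifi44, effectors that act on viral RNA or on infected cells. Ifit3 had 78.2, 68.3 and 30.5 CPM in iKO and 5.62 and 4.86 CPM in control cells, and Ifi44 117, 76.8 and 91.6 CPM in iKO and 0 and 19.5 CPM in control cells. Their edgeR adjusted p were 0.0763 and 0.0745. Ifit1 had 62.5, 64 and 0 CPM in iKO and 0 and 4.86 CPM in control cells, so that it was not detected in iKO sample 4 or control sample 1. Isg15, the ubiquitin-like modifier, had 489, 523 and 153 CPM in iKO and 16.9 and 107 CPM in control cells (log2 fold change 2.67, SE 0.62, edgeR adjusted p = 0.0827), and Bst2, the antiviral protein tetherin, 285, 401 and 366 CPM in iKO and 61.8 and 146 CPM in control cells (log2 fold change 1.75, SE 0.34, edgeR adjusted p = 0.0599). A few genes of the list did not follow. Epsti1 had 336, 356 and 450.5 CPM in iKO and 410.1 and 404 CPM in control cells, and Ddx58, the RNA sensor RIG-I, had 102, 64 and 61.1 CPM in iKO and 140.5 and 73 CPM in control cells.

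Because interferon-stimulated genes are bound by ISGF3 and other IRF factors at a response element, the core of this element (GAAANNGAAA, on either strand) was looked up in the 250 bases before the start of each gene (RefSeq, GRCm38.p6). It was present in 12 of the 29 type I list genes with a promoter in the table (41.4%), in 109 of 2724 genes tested in NK cells (4.00%) and in 2.98% of all promoters of that length. Of the 12, 8 had values without overlap between the fitted groups, as did 10 of the 17 matched genes without the core, where 15% of all tested genes lay above both controls. Of the 9 genes called higher, 4 had a promoter in the table and none of these held the core in this window. Windows around the match nearest the start are shown for the 4 genes with the largest log2 fold change among those with a match and no overlap, 5′ to 3′ on the strand of the gene, with every match in capitals, to let the spacing of the repeats be compared. Matches may overlap each other, and the reverse form reads TTTCNNTTTC. Isg15 and Bst2 hold overlapping matches, 3 and 2 in number, which form 1 run.
Ifit3 (chr19:34583367-34583446, plus strand): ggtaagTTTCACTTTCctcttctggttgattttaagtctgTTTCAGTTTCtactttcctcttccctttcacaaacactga
Isg15 (chr4:156200845-156200924, minus strand): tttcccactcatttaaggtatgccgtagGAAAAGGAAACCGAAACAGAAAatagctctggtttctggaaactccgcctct
Ifi213 (chr1:173599306-173599385, minus strand): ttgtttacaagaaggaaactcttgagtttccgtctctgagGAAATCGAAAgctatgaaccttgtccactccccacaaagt
Bst2 (chr8:71537557-71537636, minus strand): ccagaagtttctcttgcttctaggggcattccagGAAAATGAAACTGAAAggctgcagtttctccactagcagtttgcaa

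The nearest match began 122 bases before the start of Ifit3, 66 before Isg15, 73 before Ifi213 and 124 before Bst2. In NK cells, Ifi213, a PYHIN family gene, had 97.7, 102 and 45.8 CPM in iKO and 33.7 and 19.5 CPM in control cells. A match describes these letters and not a bound site.

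Genes of MHC class I presentation, which type I and type II interferons both induce, were all on the positive side. The 17 genes of the list were all tested and had a median log2 fold change of 0.62, with 11 above both controls in all 3 iKO samples (64.7%, against 15% of all tested genes). None was called by edgeR, although 12 had an unadjusted p under 0.05, and DESeq2 called Psmb9, H2-Q7 and H2-T23. H2-T23, the non-classical molecule Qa-1 that is read by the NKG2A receptor of NK cells, had 629, 668 and 527 CPM in iKO and 326 and 321 CPM in control cells (log2 fold change 0.94, SE 0.21, edgeR adjusted p = 0.0774). Psmb9, a subunit of the immunoproteasome, had 352, 386 and 374 CPM in iKO and 197 and 175 CPM in control cells (log2 fold change 1.02, SE 0.22, edgeR adjusted p = 0.0763). H2-T22 and H2-Q7 had log2 fold changes of 1.09 and 0.79. B2m, the light chain shared by class I molecules, had 3224, 3163 and 3039 CPM in iKO and 2725 and 3132 CPM in control cells.

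The genes mainly tied to interferon gamma were closer to the median of all genes. Of 22, 12 were tested, 7 with a positive and 5 with a negative log2 fold change, and the median was 0.19. Over the alternatives it ranged from -0.19, without iKO sample 1 (9 genes tested), to 1.09 after thinning (3 genes tested). The fitted groups did not overlap upward for 2 (16.7%, near the 15% of all genes). None was called by edgeR, 2 had an unadjusted p under 0.05, and DESeq2 called Irf8. Irf8, an interferon regulatory factor, had 1411, 1052 and 695 CPM in iKO and 539 and 539.9 CPM in control cells (log2 fold change 1.00, SE 0.27, edgeR adjusted p = 0.149). Gbp4, a GTPase that attacks vacuoles of microbes, had 129, 93.9 and 53.4 CPM in iKO and 73 and 131 CPM in control cells, with overlapping groups. Ifng itself had 496, 143 and 206 CPM in iKO and 214 and 175 CPM in control cells (log2 fold change 0.56, SE 0.47, edgeR adjusted p = 0.619).

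**Figure D4:**
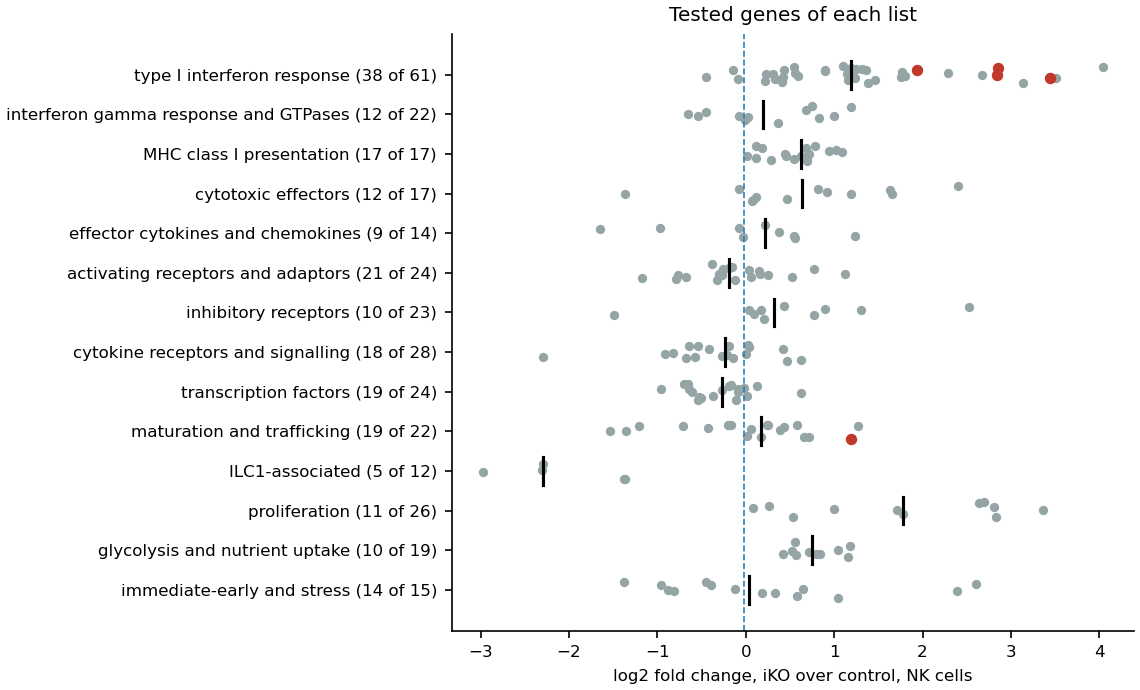
Log2 fold changes (iKO over control) of the tested genes of 14 lists in NK cells, 1 point per gene, with called genes in red, the list's median as a black bar and the median of all 3376 tested genes as a dashed line. Numbers in brackets give tested genes of all genes in the list. The type I interferon, MHC class I, proliferation and glycolysis lists lie mostly to the right, the 5 tested ILC1-associated genes to the left.

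Among cytotoxic effectors, the granzyme and perforin genes were higher in the iKO samples on average but did not pass the test. Gzmb had 5772, 2550.1 and 1199 CPM in iKO and 618 and 613 CPM in control cells (log2 fold change 2.40, SE 0.51, edgeR adjusted p = 0.0763), and 1055 CPM in iKO sample 3 and 218 and 91.8 CPM in control samples 2 and 4. All 4 iKO values lay above all 4 controls, and the fit of all 8 samples called the gene (log2 fold change 2.64, edgeR adjusted p = 0.0328). Single barcodes held 122 of 157 Gzmb UMIs in iKO sample 4, 44 of 64 in iKO sample 3 and 65 of 110 in control sample 1. All UMIs of control samples 2 and 4 (11 and 4) were in 1 barcode each. In iKO samples 1 and 2 the top barcode held 220 of 1477 and 157 of 1195. Prf1 had 2005, 1148 and 695 CPM in iKO and 416 and 418 CPM in control cells (log2 fold change 1.66, SE 0.37, edgeR adjusted p = 0.0774). Gzma, the most abundant of them, had 12248, 9020.2 and 5673 CPM in iKO and 5821 and 3823 CPM in control cells (log2 fold change 0.92, SE 0.28, edgeR adjusted p = 0.181). Gzmc, a granzyme of strongly activated lymphocytes, varied most, at 4111, 1161 and 76.4 CPM in iKO and 309 and 871 CPM in control cells. Over the list, 12 of 17 genes were tested and none was called by edgeR or DESeq2 (5 higher and 1 lower at an unadjusted p under 0.05), with a median of 0.64 that was 0.23 without iKO sample 1. Tnfsf10, the death ligand TRAIL, went the other way with 27.4, 32 and 22.9 CPM in iKO and 101 and 53.5 CPM in control cells (log2 fold change -1.36, SE 0.45, edgeR adjusted p = 0.205).

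Chemokines and cytokines showed no common direction (9 tested, median 0.22, none called by either tool, 2 lower at an unadjusted p under 0.05). Ccl5 had 7433, 7512 and 6521 CPM in iKO and 6045 and 6425 CPM in control cells, and Xcl1, which attracts cross-presenting dendritic cells, had 1122, 1411 and 664 CPM in iKO and 1584 and 725 CPM in control cells. Flt3l, the dendritic cell growth factor made by NK cells, had 27.4, 23.5 and 7.64 CPM in iKO and 84.3 and 58.4 CPM in control cells (log2 fold change -1.65, SE 0.51, edgeR adjusted p = 0.184). Ltb, lymphotoxin beta, had 179.8, 233 and 237 CPM in iKO and 511 and 350.2 CPM in control cells (log2 fold change -0.97, SE 0.24, edgeR adjusted p = 0.102).

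Of 24 activating receptors and adaptors, 21 were tested with a median of -0.19 and no call by either tool (2 higher and 3 lower at an unadjusted p under 0.05). In 9 of the 21 (42.9%, against 19.0% of all tested genes) all 3 iKO samples lay below both controls. Among these was Klrk1 with 719, 713 and 618 CPM in iKO and 888 and 783 CPM in control cells (log2 fold change -0.26, SE 0.18, edgeR adjusted p = 0.537). Klrb1c had 379, 401 and 321 CPM in iKO and 539 and 443 CPM in control cells (log2 fold change -0.38, SE 0.21, edgeR adjusted p = 0.435), and Klra8, which lay on the other side, 395, 476 and 573 CPM in iKO and 287 and 384 CPM in control cells (log2 fold change 0.52, SE 0.23, edgeR adjusted p = 0.333). The adaptors Tyrobp and Fcer1g had log2 fold changes of 0.04 and 0.16, with SEs of 0.17 and 0.18. The largest differences were those of Klrb1a (log2 fold change -1.18, SE 0.31, edgeR adjusted p = 0.135) and Sh2d1b1, an adaptor of SLAM family receptors (log2 fold change 1.13, SE 0.54, edgeR adjusted p = 0.378).

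Of 23 inhibitory receptors, 10 were tested, with a median of 0.32 and no call by edgeR (3 higher and 1 lower at an unadjusted p under 0.05). Klrg1, which marks terminally mature NK cells, had 74.3, 107 and 84 CPM in iKO and 28.1 and 4.86 CPM in control cells (log2 fold change 2.52, SE 0.54, edgeR adjusted p = 0.0763). It was detected in 26 of 90 iKO and 4 of 68 control cells, and in 0.579% of B cells, counted over all samples and without thinning. Klrb1b, an inhibitory receptor for Clr-b, had 62.5, 105 and 115 CPM in iKO and 202 and 326 CPM in control cells (log2 fold change -1.49, SE 0.30, edgeR adjusted p = 0.0742) and was called lower by DESeq2. Klrc1, which encodes NKG2A, had 250.1, 230.5 and 290.1 CPM in iKO and 269.7 and 233 CPM in control cells.

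Cytokine receptors and signalling genes had a median of -0.24 over 18 tested genes, with no call by either tool and 5 lower at an unadjusted p under 0.05, and 6 lay below both controls in all 3 iKO samples (33.3%, against 19.0% of all tested genes). Il2rb, the receptor chain through which interleukin 15 sustains NK cells, was level at 977, 834 and 863 CPM in iKO and 893 and 875 CPM in control cells. Ifnar1, a chain of the type I interferon receptor, had 58.6, 83.2 and 115 CPM in iKO and 107 and 77.8 CPM in control cells. Jak1, a kinase of that receptor, had 348, 452 and 473 CPM in iKO and 646 and 725 CPM in control cells (log2 fold change -0.68, SE 0.20, edgeR adjusted p = 0.181). Transcription factors had a median of -0.26 over 19 tested genes with no call by either tool (1 higher and 1 lower at an unadjusted p under 0.05). Eomes had 129, 164 and 153 CPM in iKO and 146 and 175 CPM in control cells, and Tbx21 (T-bet) 86, 79 and 68.7 CPM in iKO and 107 and 102 CPM in control cells. Tcf7, of less mature lymphocytes, had 43, 72.6 and 137 CPM in iKO and 124 and 175 CPM in control cells (log2 fold change -0.96, SE 0.38, edgeR adjusted p = 0.274).

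Genes of group 1 innate lymphoid cells other than NK cells (ILC1), which share Ncr1 and Klrb1c with NK cells, were low and tended to the control side. Summed over 12 genes, they had 109 to 352 CPM in iKO and 252 to 1626 CPM in control samples, which overlap. The 5 that passed the filter all had negative log2 fold changes (median -2.29, which was -1.46 without control sample 3 and -1.58 without iKO sample 1, and -0.84 with no low-count filter), and 4 had an unadjusted p under 0.05, but neither tool called any. Rora, a transcription factor of innate lymphoid cells, had 3.91, 12.8 and 22.9 CPM in iKO and 50.6 and 141 CPM in control cells (log2 fold change -2.98, SE 0.63, edgeR adjusted p = 0.0745). Tmem176b had 3.91, 34.1 and 38.2 CPM in iKO and 95.5 and 161 CPM in control cells (log2 fold change -2.31, SE 0.51, edgeR adjusted p = 0.0774), and Il7r, the interleukin 7 receptor, 7.82, 25.6 and 68.7 CPM in iKO and 28.1 and 243 CPM in control cells. For Il7r control sample 1 lay among the iKO samples and control sample 2, not fitted, had 872 CPM. Cxcr6 and Itga1, the defining ILC1 markers, were found in 20 and 25 of the 158 cells, and Itgae in none. The share of ILC1 among the gated cells was not tested. Of the maturation and trafficking genes, 19 of 22 were tested, and Lgals1, described above, was the one called. Cxcr4, which retains NK cells in bone marrow, had 35.2, 29.9 and 61.1 CPM in iKO and 152 and 73 CPM in control cells (log2 fold change -1.53, SE 0.42, edgeR adjusted p = 0.15), and Emb 168, 211 and 473 CPM in iKO and 461 and 798 CPM in control cells (log2 fold change -1.21, SE 0.38, edgeR adjusted p = 0.184).

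Proliferation genes were higher in all iKO samples when summed. Over 26 genes, the level was 1236 to 3970.3 CPM in iKO and 258 to 613 CPM in control samples, without overlap. The filter passed 11, all with a positive log2 fold change, a median of 1.78 and no call by edgeR (5 at an unadjusted p under 0.05), while DESeq2 called Stmn1 and Top2a. Top2a, the topoisomerase of dividing cells, had 168, 162 and 512 CPM in iKO and 33.7 and 38.9 CPM in control cells (log2 fold change 2.81, SE 0.59, edgeR adjusted p = 0.0745). Mki67 had 172, 98.2 and 504 CPM in iKO and 28.1 and 43.8 CPM in control cells (log2 fold change 2.64, SE 0.72, edgeR adjusted p = 0.149). The level in iKO sample 4 rested on 12 barcodes, 2 of which were cycling, and the share of cycling cells did not pass its test (above). The list's median was 0.76 without iKO sample 4 and 2.74 without iKO sample 2.

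Enzymes of glycolysis lay on the iKO side with little spread between genes. All 10 tested genes of 19 had positive values with a median of 0.75, and 7 did not overlap (70%, against 15% of all genes). None was called by edgeR (7 at an unadjusted p under 0.05), while DESeq2 called Eno1, Tpi1, Gapdh and Ldha. Eno1, enolase, had 723, 649 and 473 CPM in iKO and 253 and 302 CPM in control cells (log2 fold change 1.18, SE 0.24, edgeR adjusted p = 0.0745), and Ldha, lactate dehydrogenase, 930.1, 888 and 664 CPM in iKO and 393 and 428 CPM in control cells (log2 fold change 1.04, SE 0.22, edgeR adjusted p = 0.0745). The list's sum over all 19 genes was 3707 to 6946 CPM in iKO and 2101 to 4037 CPM in control samples, which overlap. Immediate-early and stress genes, which tissue digestion can raise, had a median of 0.03 over 14 tested genes, which was 0.63 without control sample 3 (3 higher and 2 lower at an unadjusted p under 0.05, none called by edgeR and Hsp90aa1 called by DESeq2). Fos had 117, 201 and 122 CPM in iKO and 129 and 438 CPM in control cells, and Hspa1b 113, 59.8 and 145 CPM in iKO and 22.5 and 14.6 CPM in control cells.

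Whether the genotype difference was particular to NK cells was asked by testing the difference of differences against CD8 T cells and against Csf1r-positive cells of the same 5 samples, with the sample as a block. All gates came from the same samples and pools, and the block uses the spread within samples. Against CD8 T cells, 3 of 9517 genes had a larger log2 fold change in NK cells (0.0315%) and none a smaller one (0.0%), with 531 at an unadjusted edgeR p under 0.05 in either direction. Of these 3, Klra8 and Klra4 passed the filter through NK cells and were nearly absent from CD8 T cells, so that their differences rest on a few CD8 UMIs and do not show a difference in response. Their CD8 levels were 0.181, 0.0504 and 0 CPM in iKO samples 1, 2 and 4 and 3.72 and 0.443 CPM in control samples 1 and 3 for Klra8 (difference 5.08, SE 0.76, edgeR adjusted p = 0.0279), and 0.318, 0.252 and 0.415 against 2.31 and 1.33 CPM for Klra4 (difference 3.75, SE 0.53, edgeR adjusted p = 0.0279). In NK cells Klra4 had 696, 536 and 221 against 303 and 302 CPM (log2 fold change 0.74, SE 0.38, edgeR adjusted p = 0.394), and Klra8 was not called there either (above). The third, Spp1 (osteopontin), had 5467, 623 and 1909 CPM in iKO and 73 and 175 CPM in control NK cells (difference 4.64, SE 0.73, edgeR adjusted p = 0.0309). In iKO sample 1, 1338 of its 1399 UMIs came from 1 barcode (95.6%), and in iKO sample 4, 236 of 250 (94.4%). Without control sample 1 no gene differed from CD8 T cells by edgeR (364 at an unadjusted p under 0.05), without iKO sample 2 there was 1, without iKO sample 1 there were 10, and without iKO sample 4 there were 42 larger and 11 smaller.

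No gene of the type I interferon list was called different between NK and CD8 T cells. The median over its 38 tested genes was 1.19 in NK cells, 0.94 in CD8 T cells and 1.56 in Csf1r-positive cells. With each gate fitted alone, edgeR called 4 of the 38 between genotypes in NK cells and none in CD8 T or Csf1r-positive cells. For Ifi27l2a the 3 values were 3.44, 2.06 and 1.74, for Irf7 1.94, 1.96 and 2.89, and for Ly6a 2.84, 1.34 and 2.07. The difference for Ifi27l2a was 1.41 against CD8 T cells (SE 0.25, edgeR adjusted p = 0.106) and 1.75 against Csf1r-positive cells (SE 0.29, edgeR adjusted p = 1.14e-06).

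Against Csf1r-positive cells, the signed log2 fold change was larger in NK cells for 102 of 11504 genes (0.887%) and smaller for 50 (0.435%). Smaller values include stronger falls, as for S100a8 (-5.28 in NK and -1.80 in Csf1r-positive cells). Interferon gamma genes stood on the smaller side. Of the 12 tested, 6 were called smaller in NK cells (Gbp4, Gbp7, Ifi47, Irf1, Socs1 and Cd274) and none larger, and the list's medians were 0.19 in NK and 1.43 in Csf1r-positive cells. None of the 12 was called between genotypes by edgeR in either gate on its own. Gbp4 was at 136, 105 and 28 CPM in iKO and 37.1 and 13 CPM in control Csf1r-positive cells, so that sample 4 of the iKO group lay within the controls, while NK cells had the overlapping values given above (difference -2.08, SE 0.39, edgeR adjusted p = 4.99e-05). Socs1, the feedback inhibitor of cytokine signalling, had 147, 111 and 36.1 CPM in iKO against 41.3 and 29.9 CPM in control Csf1r-positive cells, and 74.3, 70.4 and 61.1 against 67.4 and 136 CPM in NK cells (difference -2.01, SE 0.40, edgeR adjusted p = 0.000156). Ddx58 (difference -2.07, SE 0.39, edgeR adjusted p = 4.99e-05) and Ly6c2, a surface protein of monocytes and activated lymphocytes (difference -2.08, SE 0.28, edgeR adjusted p = 3.72e-10), were also smaller in NK cells. Ly6c2 had 2599.6, 2536 and 1229.7 against 464 and 328 CPM in Csf1r-positive cells and 199, 403 and 932 against 405 and 355 CPM in NK cells.

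On the larger side were genes of cell division and glycolysis. Of the 11 tested proliferation genes, 7 were called larger (Ube2c, Cenpe, Stmn1, Mki67, Ccnb2, Top2a and Birc5) and none smaller, with list medians of 1.78 in NK, 0.45 in CD8 T and -0.44 in Csf1r-positive cells. None of the 11 was called between genotypes by edgeR in any of these gates on its own. Top2a (difference 3.41, SE 0.44, edgeR adjusted p = 2.14e-11), Cks1b, which binds cyclin-dependent kinases (difference 3.84, SE 0.64, edgeR adjusted p = 1.59e-06), and Spc24, of the kinetochore (difference 3.57, SE 0.86, edgeR adjusted p = 0.00597), were among the 8 with the largest differences. Cks1b had 106, 64 and 145 against 0 and 19.5 CPM in NK cells and 11.5, 11.2 and 24.4 against 15.7 and 24.2 CPM in Csf1r-positive cells. With the stricter NK rule, Top2a and Spc24 were no longer called (2.13 and 2.63, edgeR adjusted p = 0.718 and 0.885). That fit also lacked iKO sample 4, which had 7 NK barcodes under the stricter rule, so that the 2 changes cannot be told apart. Spc24 was also not called without iKO sample 2, control sample 1 or control sample 3, nor Cdk1 (4.06) with the stricter rule or without either control sample. Of the 10 tested glycolysis genes, 4 were called larger (Eno1, Tpi1, Gapdh and Ldha), with list medians of 0.75, 0.32 and -0.09 in the 3 gates. None of the 10 was called between genotypes by edgeR in a gate on its own. The calls between gates rest on counts within each sample, and some belong to genes whose NK values overlap. Ifitm1 had 19.5, 512 and 15.3 CPM in iKO and 33.7 and 48.6 CPM in control NK cells, with 1 iKO sample high (difference 3.63, SE 0.40, edgeR adjusted p = 3.83e-16). The counts were 38 larger and 27 smaller without control sample 1, 41 and 25 without control sample 3, 50 and 21 without iKO sample 2, 198 and 103 without iKO sample 4, and 21 were smaller without iKO sample 1.

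**Figure D5:**
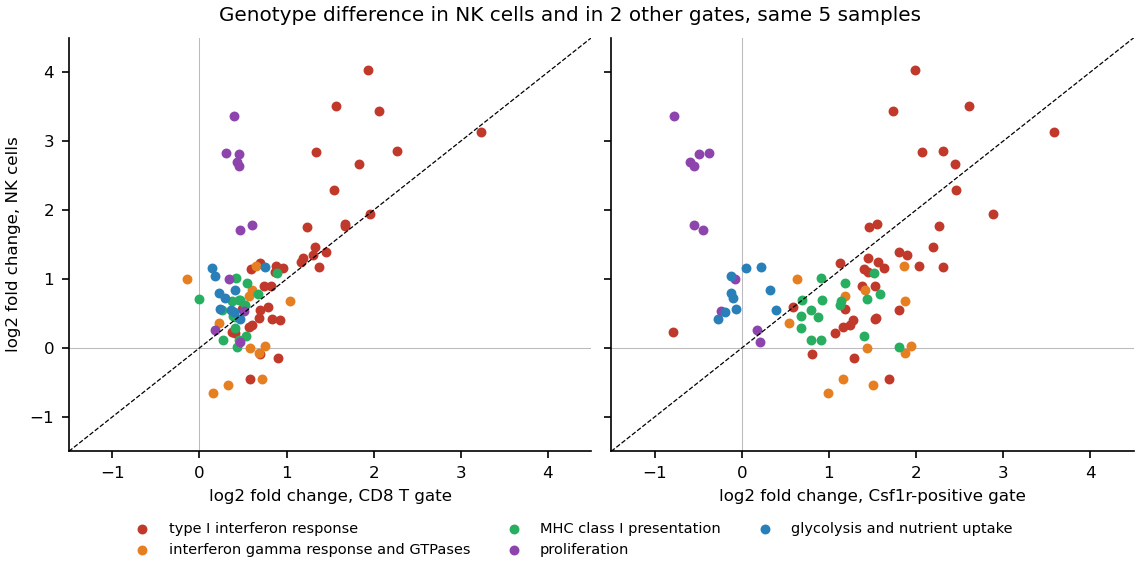
Log2 fold change (iKO over control) of tested genes of 5 lists in NK cells (vertical axis) against CD8 T cells (left) and Csf1r-positive cells (right), in the same 5 samples. The dashed line marks equal values. Proliferation genes lie above the line on the right, and interferon gamma genes, with a median of 0.19 in NK cells, below it.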

How the data were processed

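Each genotype was 1 pool of live CD45-sorted tumour leukocytes, split by hashtag into 4 matrices. The authors' deposited matrices hold raw UMI counts per gene and barcode. They were made with Cell Ranger 7.1.0 on GRCm39, per the submitters' processing notes. How hashtags were assigned to barcodes is not given in the sources used here, and in all 8 matrices the matrix's own hashtag was the highest in 99.8% to 100% of kept barcodes. The 4 hashtag and 92 spike-in features were left out of library sizes and tests.

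Of 23731 barcodes, 22490 were kept. Kept barcodes held 16925615 to 96074582 UMIs per sample, and NK barcodes 43566 to 468615, and the number of NK barcodes limits the precision. NK UMIs were summed per hashtagged sample. Samples with at least 10 NK barcodes (5 of 8) were fitted with edgeR 4.0.16 (R 4.3.3, TMM, filterByExpr, quasi-likelihood test, Benjamini-Hochberg adjusted p under 0.05), with DESeq2 1.42.0 as an alternative. Differences between cell gates were tested as the interaction of gate and genotype, with the hashtagged sample as a block. Larger and smaller there refer to the signed log2 fold change, so that a gene with a stronger fall in NK cells counts as smaller. Shares were compared over the 4 samples per genotype by two-sided exact permutation tests. Doublets were scored with Scrublet (scanpy 1.11.5) and kept, and 1 NK barcode had a score over 0.25. Other alternatives were other scalings, no low-count filter, a stricter rule, thinning to 2000 UMIs, and leaving out each sample. The stricter rule and thinning left iKO sample 4 with 7 and 8 NK barcodes, so that their fits lacked this sample too. The fits of all 8 samples were chosen after seeing the data.

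The NK rule and the gene lists were chosen with earlier results of these data known. Genes named were called genes with the largest log2 fold change, no overlap between the groups and a mean of at least 50 CPM (up to 15 per direction). In the differences between gates they were up to 8 called genes per direction with a mean NK level of at least 50 CPM, with no rule on overlap. Up to 4 members per list by absolute log2 fold change and the cell type markers were named as well. Other genes (Isg15, Bst2, Ifi213, Epsti1, Ddx58, B2m, Gzma, Ccl5, Xcl1, Klrk1, Tyrobp, Fcer1g, Klrc1, Il2rb, Ifnar1, Tbx21, Mki67 and Fos) were chosen after their values were seen. Same-numbered samples of the 2 groups did not deviate together, as described with the alternatives.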

Additional observations from a re-analysis of the deposited data

Results flagged for a closer look

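In 13 of 58 groups of 4 samples, 1 sample lay farther from the rest than the 95% limit of Dixon's test. Chance exceeds this limit in about 1 of 20 groups of independent, normally spread values, a rate that cannot be set against the 13. Shares with all samples but 1 at 0 exceed it whatever the value, and S100a8, S100a9 and the neutrophil sum rest mostly on the same barcode. Control sample 1 had 2995 CPM of S100a8 (the other controls 45.9 to 141), 2601 CPM of S100a9 (115 to 258) and 5647 CPM of neutrophil markers in sum (184 to 438), most of it from 1 barcode. In iKO sample 2, neutrophil markers summed to 211 CPM (107 to 117 in the other iKO samples), Cxcl2 was at 23.5 CPM (15.3 to 16.5) and the median UMIs per NK barcode were 9104.5 (7204.5 to 7515.5). Control sample 4 had 964 CPM of Ran (233 to 247) and 803 CPM of Gm10076 (413 to 476) from 5 barcodes. With 6 NK barcodes, iKO sample 3 had 1483 CPM of Gm10076 (873 to 969.7), where 59 of 90 UMIs came from 1 barcode, and 544 CPM of ILC2 and ILC3 markers in sum (54.7 to 76.4). After thinning, Cd27 with Itgam was detected in 2.22% of cells in iKO sample 2 and 8.33% in control sample 1 and in no other sample, and the one cycling control cell made up 3.13% of control sample 3.

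The log2 fold change between genotypes differed between NK and CD8 T cells, by edgeR's interaction test, for Klra8 (5.08), Spp1 (4.64) and Klra4 (3.75). Klra8 and Klra4 had at most 3.72 CPM in any of the 5 CD8 T samples and were not called in NK cells, so that these 2 values rest on a few CD8 UMIs. It was larger in NK than in Csf1r-positive cells, among the genes with the largest differences, for the histone gene H2ac4 (11.71), Spp1 (4.43), Cdk1 (4.06), Cks1b (3.84), Ifitm1 (3.63), Spc24 (3.57), Top2a (3.41) and the heat shock gene Hspa1b (3.32). It was smaller in NK cells for the protease inhibitor gene Slpi (-3.33), S100a8 (-2.36), Gbp4 (-2.08), Ly6c2 (-2.08), Ddx58 (-2.07), Il7r (-2.03), Socs1 (-2.01) and Cxcl2 (-1.95). For S100a8, Cxcl2 and Il7r the smaller value was a stronger fall in NK cells (-5.28, -3.45 and -2.29) than in Csf1r-positive cells (-1.80, -1.19 and -0.14). H2ac4 had 50.8, 17.1 and 244 CPM in the 3 fitted iKO and 0 and 0 CPM in the 2 fitted control samples of NK cells, so that its fitted difference depends on the prior count and is no bound. Cdk1 had 35.2, 34.1 and 176 against 0 and 9.73 CPM in NK cells, and Slpi 7.82, 2.13 and 7.64 against 275 and 9.73 CPM. Spp1, at 1145, 1149 and 1649 against 3007 and 1044 CPM in Csf1r-positive cells, came mostly from 1 barcode each in iKO samples 1 and 4 of NK cells.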

How the results depend on the processing

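With 5 to 46 NK barcodes per sample and 2 fitted controls, single samples and barcodes set many values. Genes called higher in iKO (9) numbered 31 by DESeq2, 141 with no low-count filter, 47 with at least 20 barcodes per sample, 24 after thinning and 0 to 47 when 1 sample was left out. Genes called lower (4) numbered 41 with no filter, 12 with at least 20 barcodes and 0 to 12 with 1 sample left out. The cause was not tested for any of these counts. Thinning left 836 genes to test and 8 NK barcodes in iKO sample 4, which was then not fitted. Asking for at least 20 barcodes left out iKO sample 4 alone, so that it is the same fit as leaving out that sample.

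A replicate block on the 5 fitted samples leaves no residual degrees of freedom. On all 8 samples the replicate block gave 4 genes higher and 0 lower, and 2 of the 12 genes tested stayed called (Ifi27l2a and Ly6a). Samples with the same number had correlations of -0.10 to 0.13 between their deviations, so that the numbers are not taken as pairs.

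Against CD8 T cells, genes with a larger difference in NK cells (3) numbered 51 with no filter, 29 with the stricter rule, 0 with all 8 samples (420 at an unadjusted edgeR p under 0.05) and 0 to 42 with 1 sample left out. Those with a smaller one (0) numbered 6, 11, 0 and 0 to 11. Against Csf1r-positive cells, the larger ones (102) numbered 61 with no filter and 38 to 198 with 1 sample left out, and the smaller ones (50) 31 with all 8 samples and 21 to 103 with 1 left out.

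Some values changed sign. The difference in NK share ranged from -0.327 to 0.0111 percentage points with 1 sample left out, and that in cells with Cd27 and Itgam from -2.22 to 0.556, both positive without control sample 1. After thinning, in the fit that also lacked iKO sample 4, S100a8 was at 1.35, S100a9 at 2.46 and Cxcl2 at 0.88. The macrophage list's median (-1.14 over 5 tested genes) was 0.19 with no filter (12 genes) and 0.12 without control sample 1 or control sample 3 (10 and 9 genes). It was -1.37 without iKO sample 4 (4 genes), and after thinning 1 gene alone was tested, at 1.04. The genes compared thus changed as well. Medians near 0 crossed it under at least 1 alternative for 8 other lists, which were interferon gamma, effector cytokines, activating receptors, cytokine receptors, transcription factors, maturation, immediate-early and T cell markers. The difference from Csf1r-positive cells was -0.80 for Hspa1b with the stricter rule and, with 1 sample left out, -3.03 to 0.27 for Il7r (0.27 without control sample 3). For the 13 called genes, 125 of 190 alternative values kept direction and call, 62 kept the direction alone, and 3 turned. The fit with at least 20 barcodes and that without iKO sample 4 are 1 fit, counted there as 2 alternatives. Subset shares passed no exact permutation test after adjustment under any alternative.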
